A study of Mus musculus with 12 samples.

Results

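Imprinted genes are transcribed from only the maternal or only the paternal copy, and 49 of them were followed in fetal mouse gonads in which the transcription factor FOXL2 had been switched on in XY somatic cells. The members were a list of genes known to be imprinted in the mouse, 22 of them maternally expressed, 26 paternally expressed, and Gnas, whose transcripts differ in the expressed copy. Each was represented by the transcript cluster (the array's unit for a locus) that the platform annotation assigns to that gene alone. Of the 49 genes, 42 had such a cluster, out of 30712 genes named that way on the array. Another 6 (H19, Meg3, Rian, Mirg, Rtl1 and Snrpn) lie on clusters that name other genes too and were kept apart, and Zrsr1 was not analysed here. RNA of embryos at 14.5 days post coitum was measured on Affymetrix Mouse Transcriptome 1.0 arrays, with 4 arrays per group, each from the gonad pair of a single embryo after removal of the mesonephros. XY FOXL2+ gonads carried the Rosa26-CAG-LSL-Foxl2+/f allele together with the Sf1-cre+/Tg driver, so that Cre removes a stop cassette and lets the CAG promoter drive Foxl2. XX control and XY control gonads were Rosa26+/+; Sf1-Cre+/Tg. All 3 groups therefore carried Sf1-cre, which acts in somatic cells of the gonad and not in germ cells, and all came from crosses on a mixed 129Sv and C57Bl/6J background.

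Imprinted genes lie mostly in domains, in which a methylated control region and often a long noncoding RNA set which parental chromosome is read. Many of them govern fetal growth, and paternally expressed members often promote growth while maternally expressed members often restrain it. Some are imprinted only in placenta or brain, and germ cells of the fetal gonad erase their imprints, so the tissue measured here mixes cells with and without imprints. The arrays measure the summed RNA of both chromosomes and do not show which copy it came from.

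The long RNAs Meg3, Rian and Mirg of the Dlk1-Dio3 domain carry a dense series of microRNAs. The clusters of 10 of these microRNAs fell in XY FOXL2+ gonads relative to XY controls, and 1 mature arm of each is shown to identify it (RefSeq, GRCm38.p6; the 3p arm where listed, otherwise the 5p arm). They run 5′ to 3′ in chromosomal order, with the seed, bases 2 to 8, in capitals. Their hairpins lie on the plus strand within 29023 bases, at chr12:109710175-109739197.
mmu-miR-411-3p: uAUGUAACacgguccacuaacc
mmu-miR-380-3p: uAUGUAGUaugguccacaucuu
mmu-miR-323-3p: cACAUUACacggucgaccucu
mmu-miR-758-3p: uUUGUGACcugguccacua
mmu-miR-329-3p: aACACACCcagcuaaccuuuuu
mmu-miR-543-3p: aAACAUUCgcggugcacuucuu
mmu-miR-376c-5p: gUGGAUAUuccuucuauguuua
mmu-miR-487b-5p: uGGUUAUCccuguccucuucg
mmu-miR-539-5p: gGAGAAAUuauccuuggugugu
mmu-miR-496a-3p: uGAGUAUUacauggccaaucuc

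No pair among these 10 arms shared a seed. Over the 68 mature arms of the 36 microRNAs listed for the domain there were 65 distinct seeds, and 3 seeds occurred in more than 1 microRNA. The seed of miR-411-3p is also that of miR-379-3p, and the seed of miR-376c-5p is also that of miR-376b-5p, as the next lines show.
mmu-miR-379-3p: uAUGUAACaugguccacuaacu
mmu-miR-376b-5p: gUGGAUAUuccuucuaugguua

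At the other end of the domain lies Dlk1, the member with the smallest adjusted p in the comparison of XY FOXL2+ with XY control gonads. Its RefSeq promoter window (GRCm38.p6, chr12:109452573-109452872, plus strand) is shown because the forkhead motif TGTTTAC, a core that forkhead factors bind, occurs in it at bases 164 and 184, in capitals. The windows run across annotated transcription starts.
Dlk1 promoter: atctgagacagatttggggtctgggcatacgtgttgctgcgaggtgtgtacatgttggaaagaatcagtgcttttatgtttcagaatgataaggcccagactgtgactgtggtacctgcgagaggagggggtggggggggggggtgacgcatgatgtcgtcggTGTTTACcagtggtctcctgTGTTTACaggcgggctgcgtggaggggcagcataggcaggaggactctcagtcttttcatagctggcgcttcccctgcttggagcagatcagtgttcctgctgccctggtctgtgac

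Read on both strands, TGTTTAC was present in 3 of 60 windows of 39 listed members (5%, in Dlk1, Nap1l5 and Mkrn3), against 3.65% of 32851 windows of all genes. Of all windows, 36 (0.11%) held it at least 2 times. That minimum follows the Dlk1 window, which was picked for its 2 matches, so the share does not measure how unusual that window is. The SF1 motif AAGGTCA was present in 1 member window (1.67%, Meg3), against 4.72% of all windows. The motifs do not overlap in sequence, and a match or its lack says only which letters stand in the window. Member windows held a median of 13.5 CpG dinucleotides, against 7 in all windows.

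The signals are deposited on a log scale, whose base was taken as 2. Every log2 difference and fold rests on that base. Foxl2 read 7.67, 8.62, 7.18 and 6.72 in XY FOXL2+ gonads, 8.08, 7.30, 7.14 and 7.39 in XX controls, and 5.07, 5.55, 5.44 and 5.33 in XY controls, so every XY FOXL2+ array lay above every XY control (difference 2.20, SE 0.33, adjusted p = 0.00122). The table has no detection calls. Group means of 9 genes of other tissues, taken as silent here, ran from 4.60 to 6.24. The 5 measured Y-linked genes averaged 6.15 in XX gonads, which lack them, and the highest of the 5 averaged 6.94. A signal near or under 6.94 was therefore treated as one that cannot be told from background. All group means of 6 members (Dio3, Magel2, Mkrn3, Ascl2, Nap1l5 and Calcr) lay at or under it, and none of the 6 passed in any comparison. Foxl2 lay under 6.94 in all XY controls and in XY FOXL2+ replicate 4 (6.72), so the size of its difference is uncertain. In whole gonads, fewer cells of a type and less RNA per cell cannot be told apart. Probe strand is not given, so overlapping pairs (Kcnq1 and Kcnq1ot1, Igf2r and Airn, Nnat and Blcap, H13 and Mcts2, Trappc9 and Peg13) may share signal. On the first principal component (51.5% of variance) XY FOXL2+ replicates 1 and 2 lay at 20.3 and 39.1 and replicates 3 and 4 at -21.3 and -23.1, beside 55.8 to 61.6 in XX controls and -66.3 to -59.9 in XY controls, and replicate 1 stood apart on the second (14.1%), at -76.9. With quantile normalization XY FOXL2+ minus XY control had 2184 positive and 2656 negative calls over all clusters, against 1621 and 3077 as deposited, and XX minus XY control had 6116 and 5385, against 4727 and 6732.

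XY FOXL2+ gonads differed from XY controls in few imprinted genes. Peg10, a retrotransposon-derived gene needed for the placenta, rose 3.39-fold, and the long noncoding RNA Kcnq1ot1 rose 1.37-fold. Dlk1, a transmembrane relative of the Notch ligands, fell 2.28-fold, the zinc finger gene Zdbf2 fell 1.45-fold and the tetraspanin Cd81 fell 1.22-fold. These are 5 of 42 measured members (11.9%), against 7.12% of all 65956 clusters, and 11.9% of the clusters above the median signal, where 37 of the 42 lie. By direction, 2 members (4.76%) were higher, against 2.46% of all clusters and 3.88% of those above the median signal, and 3 (7.14%) were lower, against 4.67% and 8.06%. None of 18 maternally expressed members was higher and 1 was lower (Cd81), while of 23 paternally expressed members 2 were higher (Peg10, Kcnq1ot1) and 2 were lower (Dlk1, Zdbf2). The median difference of the 42 was -0.06 on the log2 scale, beside 0.003 over all clusters. The count of higher members was 1 with array weights and with only the compared groups fitted, and it ranged from 1 to 4 when single arrays were left out, with 4 without XY FOXL2+ replicate 3 or 4 and 1 without XY FOXL2+ replicate 2, any XX control or any XY control.

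XX control gonads differed from XY controls in members of both directions and both allele classes. Of the 42 members, 20 passed (47.6%), against 17.4% of all clusters and 28.6% of those above the median signal. The 9 higher in XX (21.4%, against 7.17% of all clusters and 12% of those above the median signal) were Phlda2, Cdkn1c, Kcnq1 and Slc22a18 of the maternally expressed members and Peg10, Inpp5f, Kcnq1ot1, Igf2 and Slc38a4 of the paternally expressed ones. The 11 lower in XX (26.2%, against 10.2% and 16.6%) were Asb4, Grb10, Osbpl5, Cd81 and H13 of the maternally expressed, Plagl1, Dlk1, Zdbf2, Airn and Peg12 of the paternally expressed, and Gnas. There were 4 higher and 5 lower of 18 maternally expressed and 5 higher and 5 lower of 23 paternally expressed members. The median difference was 0.02, beside -0.033 over all clusters. The 5 members that passed between XY FOXL2+ and XY control gonads also passed here in the same direction, but both comparisons use the same 4 XY control arrays.

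XY FOXL2+ gonads differed from XX controls in 9 members (21.4%, against 5.51% of all clusters and 9.33% of those above the median signal). Plagl1, Asb4, Grb10 and Peg12 were higher in XY FOXL2+ (9.52%, against 2.87% of all clusters and 4.61% of those above the median signal), and Phlda2, Kcnq1, Inpp5f, Slc38a4 and Kcnq1ot1 were lower (11.9%, against 2.64% and 4.72%). The maternally expressed members split 2 higher and 2 lower, and the paternally expressed 2 higher and 3 lower. The median difference was -0.04, beside 0.032 over all clusters. The lower count was 11 without XY FOXL2+ replicate 2, 10 with array weights and 2 with only the compared groups fitted, and the higher count was 2 without XX control replicate 3, 8 with array weights and 2 with only the compared groups. Kcnq1ot1 was the only member past the threshold in all 3 comparisons, and 22 passed in none.

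**Figure D1:**
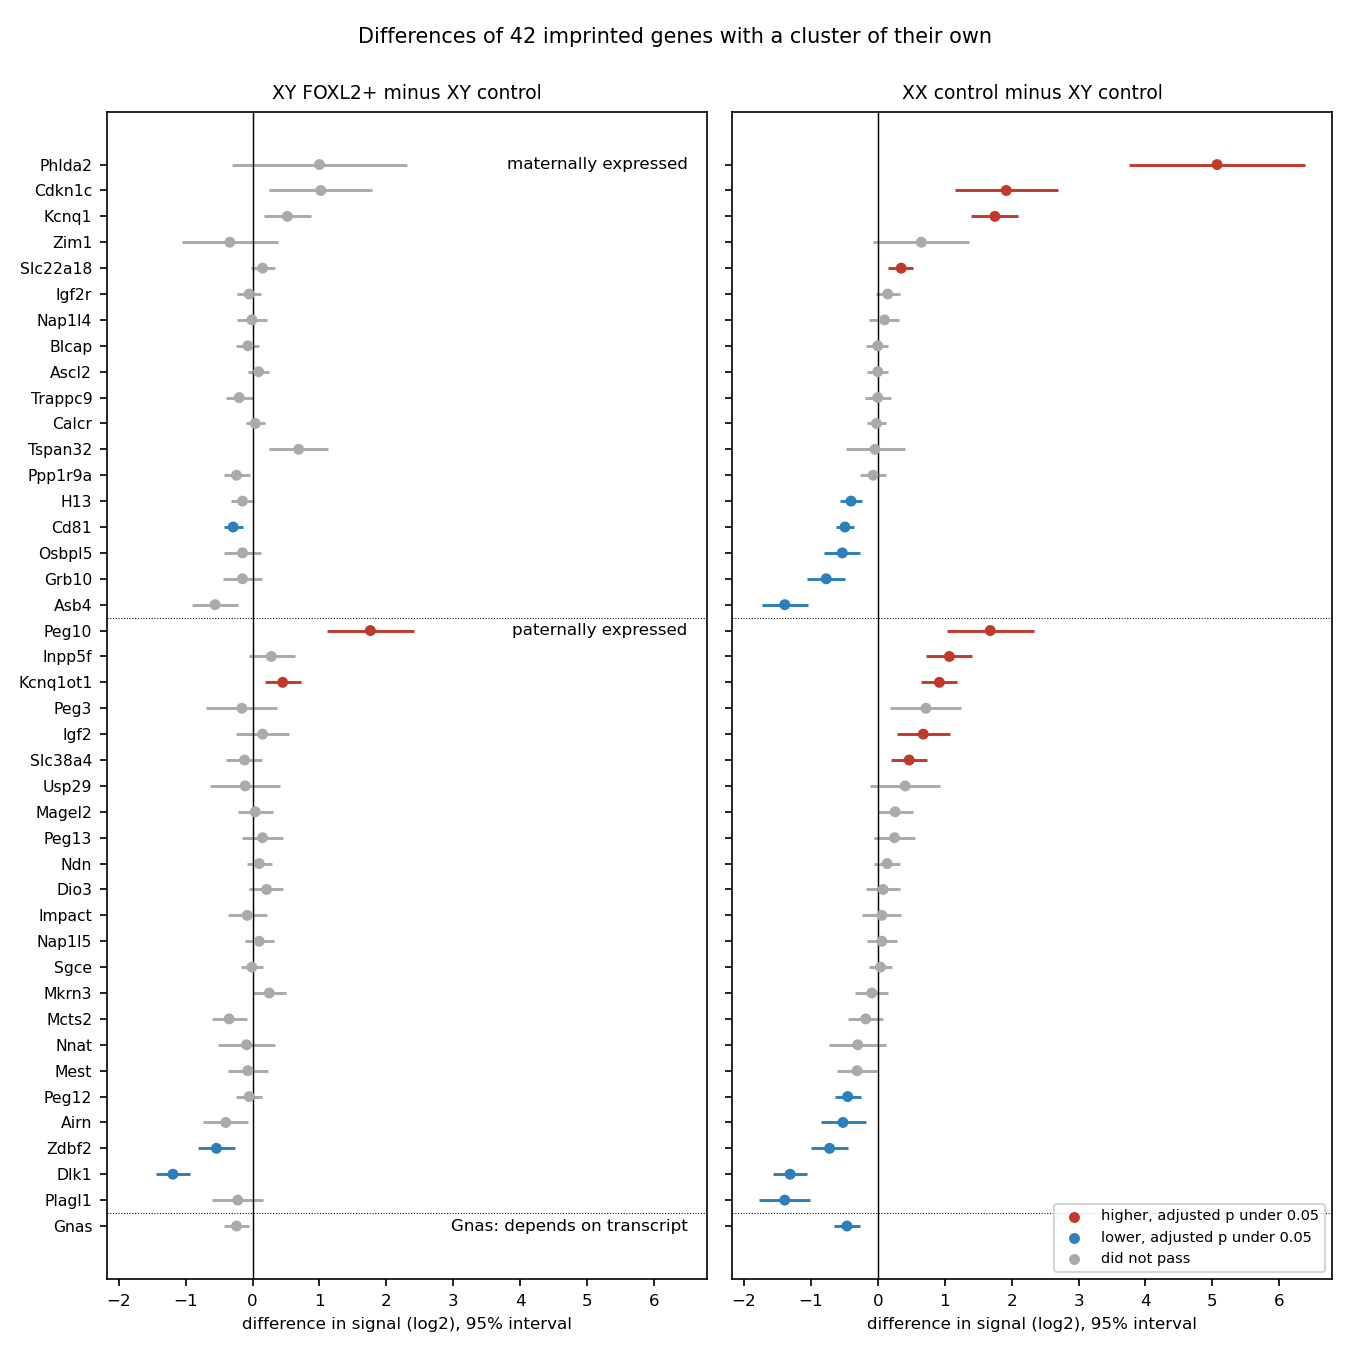
Difference in log2 signal (horizontal axis, with 95% interval from limma) for the 42 imprinted genes with a cluster of their own, ordered within each expressed allele by the XX minus XY difference; the left panel is XY FOXL2+ minus XY control and the right panel XX control minus XY control. Red and blue mark members past an adjusted p of 0.05: 2 higher and 3 lower on the left, 9 higher and 11 lower on the right, where both allele classes hold both colours.

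Dlk1 read 9.86, 9.80, 9.84 and 10.09 in XY FOXL2+ gonads, 10.02, 9.77, 9.48 and 9.84 in XX controls, and 11.21, 11.09, 10.99 and 11.04 in XY controls (log2 signal, replicates 1 to 4). All XY FOXL2+ arrays lay below all XY controls and within or just above the span of the XX controls. The XY FOXL2+ mean was 9.90 ± 0.13, the XX mean 9.78 ± 0.23 and the XY control mean 11.08 ± 0.09 (SD, n = 4 each). The difference from XY control was -1.19 for XY FOXL2+ (SE 0.12, limma adjusted p = 3.98e-05) and -1.31 for XX (SE 0.12, limma adjusted p = 8.85e-06), and that between XY FOXL2+ and XX was 0.12 (95% interval -0.13 to 0.37). All 7 measured genes of a fetal Leydig list fell as well in XY FOXL2+ gonads relative to XY controls, against 4.67% of all clusters. Their array means were 8.79 to 10.77 in XY FOXL2+, 8.80 to 8.98 in XX controls and 14.43 to 14.75 in XY controls. Their part in the Dlk1 result was not tested. Within the XY FOXL2+ group those means were 9.24 and 8.79 in replicates 1 and 2 and 10.75 and 10.77 in replicates 3 and 4. Dio3, the enzyme that inactivates thyroid hormone at the far end of the domain, read 4.69 to 5.50 on all 12 arrays, under the level of silent genes.

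The noncoding RNAs between Dlk1 and Dio3 are transcribed from the maternal chromosome, whereas Dlk1 is paternally expressed. Their clusters also name small RNAs, so the signal cannot be assigned to any single gene. The cluster that names Rian and small RNAs such as AF357355 read 11.86, 11.66, 12.36 and 12.40 in XY FOXL2+ gonads, 11.95, 11.99, 11.90 and 12.15 in XX controls, and 13.30, 13.10, 13.18 and 13.14 in XY controls. It was lower than in XY controls both in XY FOXL2+ gonads (-1.11, SE 0.15, limma adjusted p = 0.000542) and in XX controls (-1.18, limma adjusted p = 0.000119). The cluster that names Meg3, Mir770, Mir1906-1 and Mir1906-2 read 9.71, 10.09, 10.70 and 10.74 in XY FOXL2+ gonads, 10.30 to 10.46 in XX controls and 11.19 to 11.67 in XY controls, and it was lower than in XY controls in XY FOXL2+ (-1.12, adjusted p = 0.00386) and in XX (-1.06, adjusted p = 0.00201). The cluster that names Mirg and 9 microRNAs gave -0.90 (adjusted p = 0.000397) in XY FOXL2+ and -1.04 (adjusted p = 4.78e-05) in XX. In these 3 clusters XY FOXL2+ and XX controls differed by -0.06 to 0.14 with no call. Another cluster, which names Rtl1 and Mir3071, read 4.79 ± 0.09 in XY FOXL2+, 4.73 ± 0.13 in XX and 4.85 ± 0.03 in XY controls, at the level of silent genes.

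Of the 36 microRNAs listed in the domain, 25 had a cluster of their own. The cluster reads RNA of the locus from total RNA, including the precursor, and not the mature arms shown above. Relative to XY controls, 10 of the 25 fell in XY FOXL2+ gonads and none rose, against 4.67% and 2.46% of all clusters. All 25 estimates were below 0, from -1.10 to -0.17, with a median of -0.57. In XX controls 22 of 25 were lower than in XY controls and none was higher, against 10.2% and 7.17% of all clusters, and the estimates ran from -1.35 to -0.16 with a median of -0.74. Both comparisons use the same 4 XY control arrays. The largest differences in XX were those of Mir323 (-1.35), Mir329 (-1.27), Mir543 (-1.27), Mir379 (-1.23) and Mir411 (-1.12). Both group means lay under 6.94 for Mir379 (4.99 in XX and 6.22 in XY controls) and Mir411 (3.83 and 4.95). Those signals cannot be told from background. With only the compared groups fitted, 6 fell in XY FOXL2+ gonads, and Mir411, Mir758, Mir329 and Mir376c lost their calls (adjusted p = 0.0658, 0.103, 0.0504 and 0.0681). In XX, Mir495 and Mir541 lost theirs with quantile normalization (0.0568 and 0.111). Mir431, Mir370, Mir495, Mir376c, Mir376a, Mir541 and Mir409 lost their XX calls when some single arrays were left out (adjusted p = 0.0503 to 0.118). Among 27 measured microRNAs hosted by imprinted genes, these 25 included, 16 to 22 were lower in XX with single arrays left out. With only clusters above the median signal, where some microRNA clusters were not tested, 15 were lower. Of the microRNAs hosted by other imprinted genes, Mir483 in Igf2 (-0.16, adjusted p = 0.689) and Mir335 in Mest (0.11, adjusted p = 0.738) had no call between XY FOXL2+ and XY control gonads.

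Mir323 read 6.20, 6.56, 7.02 and 6.81 in XY FOXL2+ gonads, 6.52, 6.67, 6.32 and 6.08 in XX controls, and 8.16, 7.77, 7.39 and 7.67 in XY controls (XY FOXL2+ minus XY control -1.10, SE 0.19, limma adjusted p = 0.00387). Mir543 read 7.42, 7.45, 7.12 and 7.80 in XY FOXL2+ gonads, 7.29, 7.25, 6.85 and 7.03 in XX controls, and 8.83, 8.27, 8.30 and 8.12 in XY controls (-0.93, SE 0.17, limma adjusted p = 0.00501). For both, every XY FOXL2+ array lay below every XY control. The other 8 differences lay between -0.86 for Mir487b and Mir329 and -0.59 for Mir411, and that of Mir376c was -0.83. Leaving out XY FOXL2+ replicate 4 ended the call of Mir411 (adjusted p = 0.0568), and Mir380, Mir758 and Mir376c lost theirs without some of XY FOXL2+ replicates 1, 2 and 4, XY control replicates 1 to 3 and XX control replicates 1 and 4 (adjusted p = 0.0503 to 0.106). That of Mir758 was also lost with quantile normalization (adjusted p = 0.066). The mean over the 25 clusters was 6.46 to 6.61 on XY FOXL2+ arrays, 6.17 to 6.32 on XX control arrays and 6.86 to 7.40 on XY control arrays, where replicate 1 was the highest. Group means at or under the silent level of 6.94 were 16 of 25 in XY FOXL2+, 18 in XX and 11 in XY controls, and 8 of the 10 called clusters were above it in XY controls. The exceptions were Mir411 (4.36 in XY FOXL2+ and 4.95 in XY controls) and Mir487b (5.63 and 6.48), whose signals cannot be told from background. Between XY FOXL2+ and XX controls, 22 of 25 estimates were above 0, with a median of 0.33, beside 0.032 over all clusters. Only 2 passed, both higher in XY FOXL2+, against 2.87% of all clusters. They were Mir154 (0.62, adjusted p = 0.0316) and Mir411 (0.53, adjusted p = 0.0444). The first was lost without XY FOXL2+ replicate 3 or 4 or XX control replicate 2, 3 or 4 (adjusted p up to 0.102) or with only the compared groups (0.0848). The second was lost whenever any single array other than XY control replicate 1 or 2 was left out (up to 0.127), with quantile normalization (0.0609) and with array weights (0.0505). Related microRNAs of the domain may share probes, so the 25 clusters are not independent readings.

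**Figure D2:**
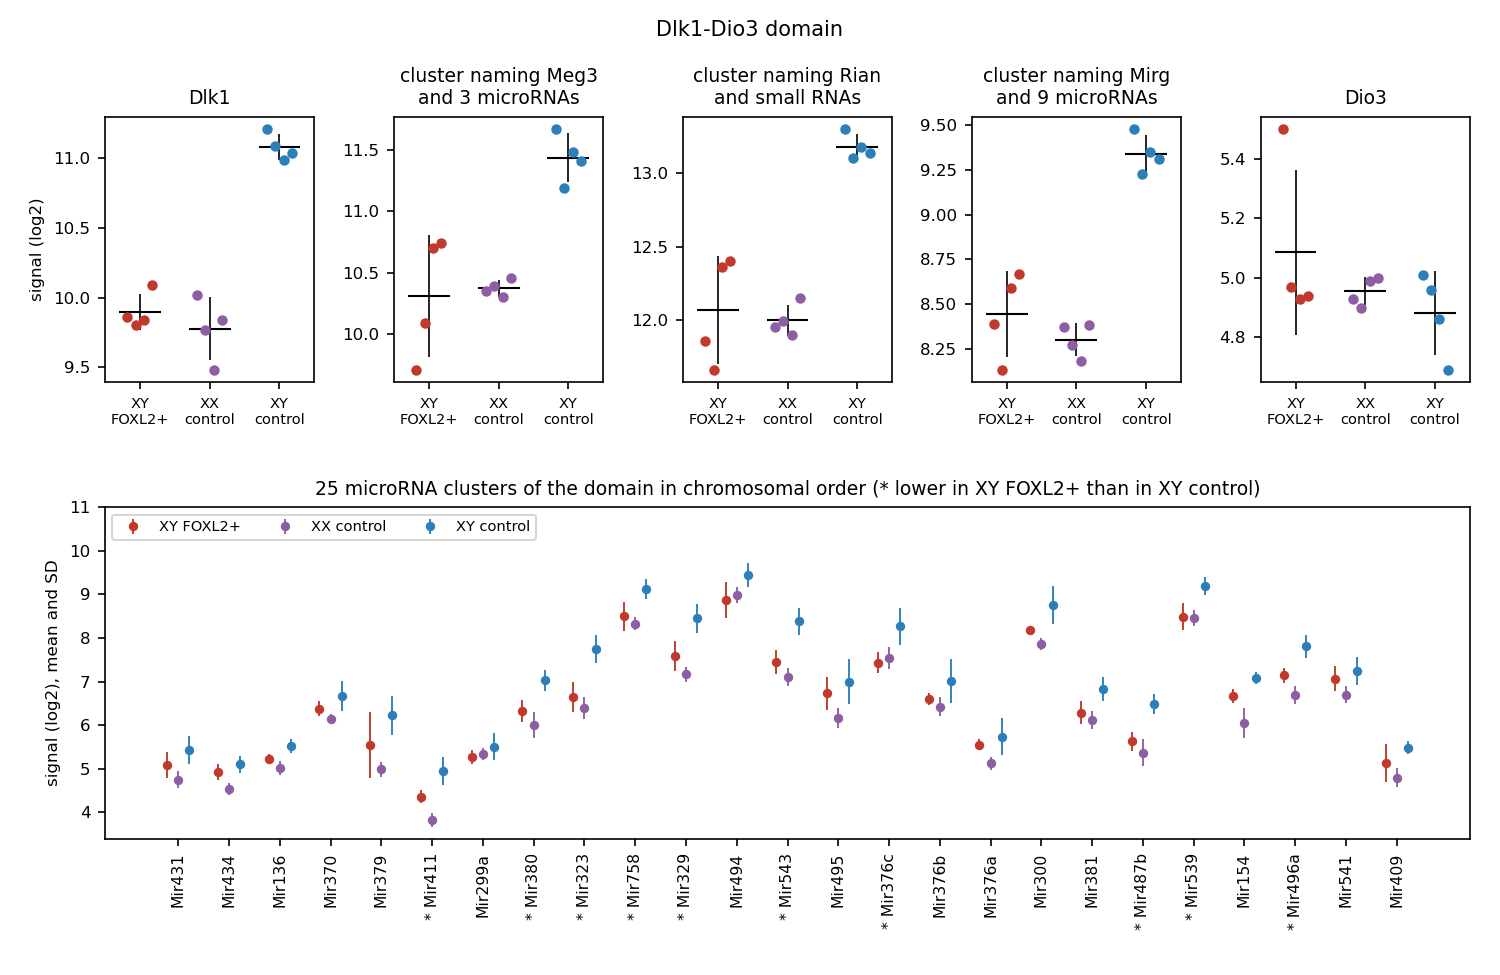
Log2 signal in the Dlk1-Dio3 domain: the upper panels give each array (points), the group mean (bar) and SD (line) for Dlk1, 3 clusters that name a noncoding RNA with small RNAs, and Dio3, on axes that differ and do not start at 0; the lower panel gives mean and SD (n = 4) of 25 microRNA clusters in chromosomal order. XY FOXL2+ and XX means lie below the XY control mean in all panels but that of Dio3, and stars mark the 10 microRNA clusters past the threshold between XY FOXL2+ and XY control gonads.

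Peg10 read 15.22, 15.27, 14.09 and 13.73 in XY FOXL2+ gonads, 14.86, 14.46, 14.27 and 14.41 in XX controls, and 12.82, 13.10, 12.69 and 12.65 in XY controls. Every XY FOXL2+ array lay above every XY control, replicates 1 and 2 above all XX controls and replicates 3 and 4 below them. The means were 14.58 ± 0.79 in XY FOXL2+, 14.50 ± 0.25 in XX and 12.82 ± 0.20 in XY controls. The rise over XY controls was 1.76 in XY FOXL2+ (SE 0.30, limma adjusted p = 0.00307) and 1.68 in XX (limma adjusted p = 0.00147), and XY FOXL2+ minus XX was 0.08 (95% interval -0.57 to 0.72). Its neighbour Sgce, an epsilon-sarcoglycan gene that is also paternally expressed, was at 10.34 ± 0.06 in XY FOXL2+, 10.38 ± 0.09 in XX and 10.34 ± 0.03 in XY controls, and the intervals of its differences stayed within -0.21 and 0.21. Of the maternally expressed neighbours, the actin-binding protein gene Ppp1r9a gave -0.24 in XY FOXL2+ (adjusted p = 0.16) and -0.07 in XX (adjusted p = 0.7) against XY control. The calcitonin receptor gene Calcr averaged 5.12 ± 0.10 in XY FOXL2+, 5.06 ± 0.06 in XX and 5.08 ± 0.04 in XY controls, under the silent level.

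Asb4, a maternally expressed neighbour of Peg10 that encodes an ankyrin repeat protein of ubiquitin ligase complexes, went the other way. It read 9.74, 8.87, 9.60 and 9.34 in XY FOXL2+ gonads, 8.61, 8.61, 8.41 and 8.60 in XX controls, and 10.09, 10.05, 9.83 and 9.81 in XY controls. The 3 groups did not overlap and XY FOXL2+ lay between the controls. Asb4 was lower in XX than in XY controls (-1.39, SE 0.16, limma adjusted p = 5.77e-05) and higher in XY FOXL2+ than in XX (0.83, limma adjusted p = 0.00888). XY FOXL2+ minus XY control was -0.56 and narrowly missed the threshold (adjusted p = 0.0537, but 0.0164 without XY FOXL2+ replicate 1, 0.0407 without replicate 3 and 0.0282 with array weights).

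Zdbf2 read 7.32, 7.28, 7.81 and 7.90 in XY FOXL2+ gonads, 7.32, 7.43, 7.36 and 7.47 in XX controls, and 8.12, 8.07, 8.14 and 8.14 in XY controls. XY FOXL2+ replicates 1 and 2 read as low as the XX controls and replicates 3 and 4 lay between the controls, without overlap with XY controls. The difference from XY control was -0.54 in XY FOXL2+ (SE 0.13, adjusted p = 0.0232) and -0.72 in XX (SE 0.13, adjusted p = 0.00162). The first call was lost without XY FOXL2+ replicate 2 or XY control replicate 1, 3 or 4 (adjusted p = 0.0569 to 0.0657) and with only the compared groups fitted (0.0879).

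The Kcnq1 domain holds 10 of the 42 members, all but Kcnq1ot1 maternally expressed. Kcnq1ot1 is the RNA that silences its neighbours on the paternal chromosome. In XX controls 5 of the 10 were higher than in XY controls and 2 were lower, against 7.17% and 10.2% of all clusters. In XY FOXL2+ gonads 1 was higher (Kcnq1ot1) and 1 was lower (Cd81) than in XY controls, against 2.46% and 4.67% of all clusters, while 3 were lower than in XX controls, against 2.64%. The maternally expressed Phlda2, Cdkn1c, Kcnq1 and Slc22a18 and the paternally expressed Kcnq1ot1 were all higher in XX than in XY controls.

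Phlda2, whose product restrains placental growth, read 7.92, 10.35, 6.69 and 6.72 in XY FOXL2+ gonads, 11.86, 11.77, 12.20 and 12.11 in XX controls, and 6.83, 6.92, 6.64 and 7.28 in XY controls. XX controls stood far above all other arrays, XY FOXL2+ replicate 2 lay between the controls, replicate 1 was above the XY controls, and replicates 3 and 4 lay within their span. The difference of XX from XY controls was 5.07 (SE 0.60, limma adjusted p = 7.76e-05), a 33.6-fold difference. The XY control mean of 6.92 lies at the level of silent genes, so this fold may understate the difference. XY FOXL2+ minus XX was -4.07 (limma adjusted p = 0.00213), and XY FOXL2+ minus XY control was 1.00 with no call (95% interval -0.30 to 2.31, adjusted p = 0.4).

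Cdkn1c, the cyclin-dependent kinase inhibitor p57, read 13.14, 13.16, 11.49 and 11.46 in XY FOXL2+ gonads, 13.48, 13.12, 13.10 and 13.17 in XX controls, and 11.29, 11.69, 11.18 and 11.02 in XY controls. XY FOXL2+ replicates 1 and 2 read with the XX controls and replicates 3 and 4 within the span of the XY controls. XX was higher than XY by 1.92 (SE 0.36, adjusted p = 0.00205), a 3.78-fold difference. XY FOXL2+ minus XY control was 1.02 (SE 0.36, adjusted p = 0.12), which passed without replicate 3 (0.0369) or replicate 4 (0.0364), and XY FOXL2+ minus XX was -0.90 (adjusted p = 0.188), which passed without replicate 2 (0.0492) and with array weights (0.0103). On the same arrays the mean of 14 fetal granulosa cell genes, Foxl2 among them, was 8.34, 8.88, 7.51 and 7.48 in XY FOXL2+ replicates 1 to 4. It was 9.35 to 9.54 in XX controls and 7.12 to 7.17 in XY controls. Of the 14, 5 were higher in XY FOXL2+ than in XY controls, against 2.46% of all clusters. Foxl2 itself, which the transgene drives, is among the 5. Relative to XX controls 10 of the 14 were lower in XY FOXL2+, against 2.64% of all clusters. The part of these 14 genes in the Phlda2, Cdkn1c and Peg10 results was not tested.

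Kcnq1, a potassium channel subunit, read 6.66, 7.22, 6.20 and 6.52 in XY FOXL2+ gonads, 7.87, 7.86, 7.96 and 7.82 in XX controls, and 6.13, 6.27, 6.06 and 6.04 in XY controls. The XX controls lay above every other array, and the means of XY FOXL2+ (6.65) and XY controls (6.13) lay under the 6.94 that Y-linked genes reached in XX gonads. XX minus XY was 1.75 (SE 0.16, limma adjusted p = 1.23e-05) and XY FOXL2+ minus XX -1.23 (limma adjusted p = 0.00103), while XY FOXL2+ minus XY control, at 0.52, did not pass (0.0751, but 0.0123 without XY FOXL2+ replicate 3). Kcnq1ot1 read 10.89, 11.10, 10.75 and 10.46 in XY FOXL2+ gonads, 11.23, 11.25, 11.33 and 11.29 in XX controls, and 10.45, 10.47, 10.30 and 10.19 in XY controls. XX controls were the highest, and XY FOXL2+ replicate 4 lay within the span of the XY controls. XX minus XY was 0.92 (SE 0.12, adjusted p = 0.000184), XY FOXL2+ minus XY control 0.45 (SE 0.12, adjusted p = 0.0451) and XY FOXL2+ minus XX -0.47 (SE 0.12, adjusted p = 0.043). The call against XY control was lost whenever any single array other than XY FOXL2+ replicate 4 was left out (adjusted p = 0.0598 to 0.123), and that against XX whenever any single array other than XY FOXL2+ replicate 1 or 2 was left out (adjusted p = 0.0508 to 0.115). Both were also lost with only the compared groups fitted (adjusted p = 0.143 against XY control and 0.107 against XX), and the first with array weights (0.067).

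Cd81 read 16.60, 16.45, 16.68 and 16.61 in XY FOXL2+ gonads, 16.45, 16.41, 16.28 and 16.41 in XX controls, and 16.89, 16.87, 16.89 and 16.84 in XY controls. All XY FOXL2+ and XX arrays lay below all XY controls. Its differences were small, -0.29 in XY FOXL2+ (SE 0.06, adjusted p = 0.0144) and -0.49 in XX (SE 0.06, adjusted p = 0.000159) against XY control, and both calls were lost with quantile normalization (adjusted p = 0.297 and 0.0904). The membrane transporter gene Slc22a18 was higher in XX than in XY controls (7.11 ± 0.07 against 6.76 ± 0.07, difference 0.35, adjusted p = 0.0113), and the oxysterol-binding protein gene Osbpl5 was lower (7.83 ± 0.07 against 8.36 ± 0.10, difference -0.53, adjusted p = 0.01). The tetraspanin gene Tspan32 did not pass, with 8.02, 7.20, 6.97 and 6.85 in XY FOXL2+ gonads, 6.37 to 6.69 in XX controls and 6.49 to 6.78 in XY controls (XY FOXL2+ minus XY control 0.69, adjusted p = 0.0599, and XY FOXL2+ minus XX 0.73, adjusted p = 0.0563). Every XY FOXL2+ array lay above every control array, and the first difference passed without XY FOXL2+ replicate 1, 3 or 4 (0.0284 to 0.0421), the second without replicate 1 or 4 (0.0281 to 0.042). The histone chaperone gene Nap1l4 and the trophoblast transcription factor gene Ascl2 gave differences of -0.11 to 0.10 in the 3 comparisons. Leaving out XY FOXL2+ replicate 2 brought XY FOXL2+ minus XX past the threshold for Cd81 (0.0333), Osbpl5 (0.0245) and Slc22a18 (0.0404).

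**Figure D3:**
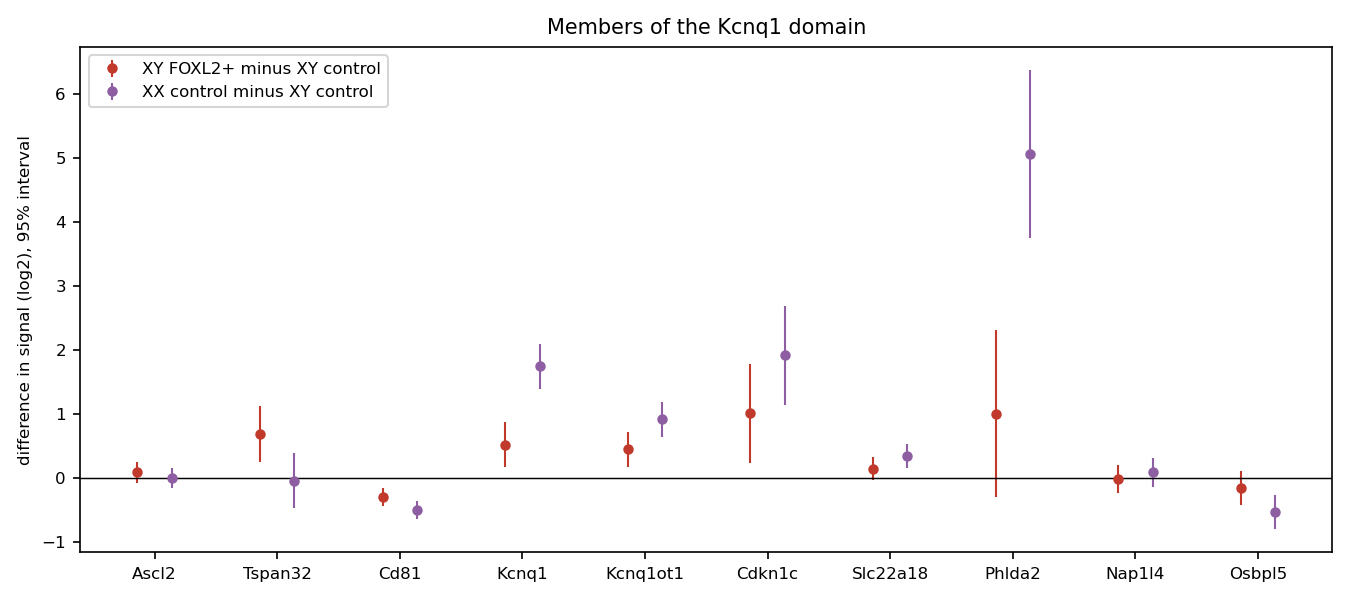
Difference in log2 signal from XY control (points, with 95% interval from limma) for the 10 measured members of the Kcnq1 domain, for XY FOXL2+ (red) and XX control (purple). Phlda2, Cdkn1c, Kcnq1, Kcnq1ot1 and Slc22a18 were higher and Cd81 and Osbpl5 lower in XX; of the XY FOXL2+ differences those of Kcnq1ot1 and Cd81 passed, and the interval of Phlda2 runs from -0.30 to 2.31.

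Igf2, the paternally expressed fetal growth factor next to the Kcnq1 domain, read 14.25, 14.45, 13.69 and 13.59 in XY FOXL2+ gonads, 14.81, 14.51, 14.34 and 14.48 in XX controls, and 13.82, 14.12, 13.79 and 13.68 in XY controls. XX controls and XY FOXL2+ replicates 1 and 2 lay above all XY controls, and XY FOXL2+ replicates 3 and 4 lay near the lowest of them. The XX controls exceeded the XY controls by 0.68 (SE 0.18, adjusted p = 0.019), lost without XY control replicate 3 or 4 or XX control replicate 1 (adjusted p = 0.0526 to 0.0634). XY FOXL2+ minus XY control was 0.15 (95% interval -0.25 to 0.54), and XY FOXL2+ minus XX was -0.54 with an adjusted p of 0.118, or 0.0236 without XY FOXL2+ replicate 2 and 0.0133 with array weights. The cluster that names H19 and Mir675, the maternally expressed noncoding RNA of the locus and the microRNA within it, cannot be assigned to either. It read 17.15, 17.34, 16.44 and 16.23 in XY FOXL2+ gonads, 17.20 to 17.47 in XX controls and 15.98 to 16.32 in XY controls. XX minus XY was 1.22 (SE 0.20, adjusted p = 0.000888), and XY FOXL2+ minus XY control 0.66 (adjusted p = 0.0726, but 0.0404 without XY FOXL2+ replicate 3 and 0.012 without replicate 4). XY FOXL2+ minus XX was -0.56 (adjusted p = 0.145, or 0.0225 without XY FOXL2+ replicate 2).

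Grb10, a maternally expressed adaptor that restrains insulin and IGF receptor signalling, was lower in XX controls. It read 14.01, 13.53, 14.15 and 14.23 in XY FOXL2+ gonads, 13.39, 13.42, 13.16 and 13.44 in XX controls, and 14.19, 14.20, 14.10 and 14.01 in XY controls. XY FOXL2+ replicate 2 came nearest to the XX controls, and no XY FOXL2+ array overlapped them. XX minus XY was -0.77 (SE 0.13, limma adjusted p = 0.00118), XY FOXL2+ minus XX 0.63 (limma adjusted p = 0.0159), and XY FOXL2+ minus XY control -0.15 (95% interval -0.44 to 0.14). The second was lost without XY FOXL2+ replicate 3 or 4 or XX control replicate 3 (adjusted p = 0.0521 to 0.0572) and with only the compared groups fitted (0.0637).

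Plagl1, a paternally expressed zinc finger transcription factor, had the same order of groups. It read 12.17, 12.36, 13 and 13.01 in XY FOXL2+ gonads, 11.55, 11.49, 11.22 and 11.59 in XX controls, and 12.78, 12.98, 12.87 and 12.79 in XY controls. Replicates 3 and 4 of XY FOXL2+ read just above all XY controls and replicates 1 and 2 lay between the controls. Between XX and XY controls the difference was -1.39 (SE 0.17, limma adjusted p = 0.000117), XY FOXL2+ minus XX 1.17 (limma adjusted p = 0.0022) and XY FOXL2+ minus XY control -0.22 (95% interval -0.60 to 0.16). On the same arrays the mean of 15 Sertoli cell genes was 8.02, 7.44, 8.62 and 8.57 in XY FOXL2+, 6.96 over the XX controls and 9.66 to 9.90 in XY controls. Of the 15, 11 fell in XY FOXL2+ gonads relative to XY controls, against 4.67% of all clusters. The mean of 8 interstitial progenitor genes was 10.76, 10.29, 11.24 and 11.28 in XY FOXL2+, 9.98 to 10.16 in XX and 11.64 to 11.75 in XY controls. Relative to XY controls 6 of the 8 fell and 1 rose in XY FOXL2+, against 4.67% and 2.46% of all clusters. The part of both lists in the Grb10 and Plagl1 results was not tested.

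Igf2r, the maternally expressed receptor that clears IGF2, averaged 12.92 ± 0.06 in XY FOXL2+, 13.12 ± 0.06 in XX and 12.97 ± 0.12 in XY controls and passed in no comparison. Airn, the paternally expressed antisense RNA that silences it, averaged 8.83 ± 0.36 in XY FOXL2+, 8.72 ± 0.15 in XX and 9.24 ± 0.13 in XY controls. Airn was lower in XX than in XY controls (-0.52, adjusted p = 0.0351), a call lost without XY control replicate 1, 2 or 3 or XX control replicate 1, 2 or 3 (adjusted p = 0.0706 to 0.103).

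Inpp5f, a phosphoinositide phosphatase gene, read 9.27, 9.60, 9.01 and 8.93 in XY FOXL2+ gonads, 10.09, 10.13, 10.12 and 9.59 in XX controls, and 8.79, 8.81, 8.97 and 9.11 in XY controls. As a group the XX controls were the highest, with replicate 4 lowest among them and just under XY FOXL2+ replicate 2. The XX controls exceeded the XY controls by 1.07 (SE 0.16, limma adjusted p = 0.000433), and XY FOXL2+ minus XX was -0.78 (SE 0.16, limma adjusted p = 0.0131). The amino acid transporter gene Slc38a4 read 12.86, 12.50, 12.43 and 12.45 in XY FOXL2+ gonads, 13.17, 13.33, 12.86 and 13.25 in XX controls, and 12.72, 12.71, 12.77 and 12.55 in XY controls. All XX controls lay above all XY controls, and XY FOXL2+ replicates 2 to 4 lay below both. It was higher in XX than in XY controls (0.47, SE 0.12, adjusted p = 0.0168) and lower in XY FOXL2+ than in XX (-0.59, SE 0.12, adjusted p = 0.0132). The first was lost without XY control replicate 4 or XX control replicate 2 or 4 (adjusted p = 0.0525 to 0.0586), and the calls of both genes against XX were lost when only the compared groups were fitted (adjusted p = 0.0506 for Inpp5f and 0.0553 for Slc38a4).

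Peg12, Gnas and H13 were lower in XX than in XY controls by less than 1.5-fold. Peg12, a gene of the GSK3-binding FRAT family, averaged 7.06 ± 0.17 in XY FOXL2+, 6.67 ± 0.08 in XX and 7.11 ± 0.08 in XY controls. It was lower in XX than in XY (-0.45, adjusted p = 0.0035) and higher in XY FOXL2+ than in XX (0.40, adjusted p = 0.0219), the second lost with quantile normalization (0.0665), with only the compared groups fitted (0.066) and without XY FOXL2+ replicate 4 or XX control replicate 2 or 3 (0.0627 to 0.0759). Gnas, which encodes the stimulatory G protein alpha subunit, averaged 10.64 ± 0.11 in XY FOXL2+, 10.43 ± 0.11 in XX and 10.88 ± 0.07 in XY controls (XX minus XY -0.46, adjusted p = 0.00292). H13, a signal peptide peptidase gene, averaged 11.35 ± 0.09 in XY FOXL2+, 11.10 ± 0.08 in XX and 11.50 ± 0.04 in XY controls (XX minus XY -0.40, adjusted p = 0.0032). Mcts2, a paternally expressed retrogene within H13, averaged 9.19 ± 0.13 in XY FOXL2+, 9.36 ± 0.20 in XX and 9.54 ± 0.18 in XY controls and passed in no comparison.

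**Figure D4:**
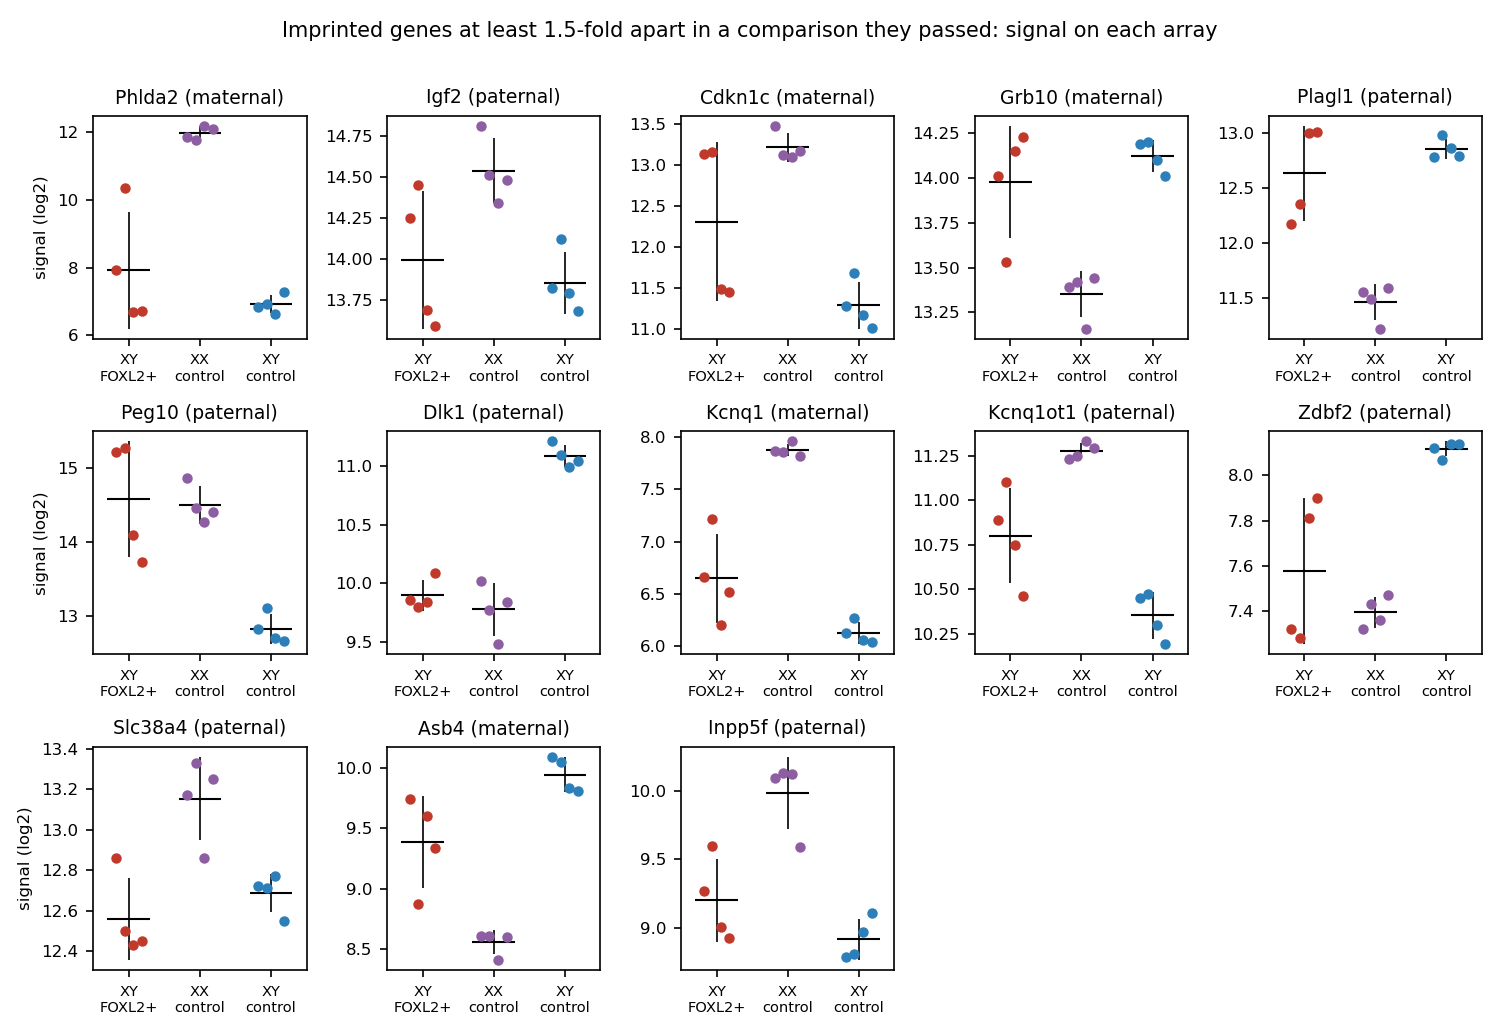
Log2 signal on each array (points, replicates 1 to 4 side by side), group mean (bar) and SD (line) of the 13 imprinted genes that passed a comparison in which they were at least 1.5-fold apart, with the expressed allele in brackets; axes differ and do not start at 0. Dlk1 reads alike on all 4 XY FOXL2+ arrays, while Cdkn1c reads 13.14 and 13.16 in replicates 1 and 2 and 11.49 and 11.46 in replicates 3 and 4.

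The 22 members past no threshold gave differences of -0.35 for Mcts2 to 0.69 for Tspan32 in XY FOXL2+ and of -0.31 for Mest to 0.72 for Peg3 in XX, both against XY control, and of -0.99 for Zim1 to 0.73 for Tspan32 between XY FOXL2+ and XX. In the Peg3 domain the zinc finger gene Peg3 read 15.29, 15.61, 14.27 and 14.36 in XY FOXL2+ gonads, 15.81, 15.80, 15.62 and 15.81 in XX controls, and 15.20, 15.17, 14.93 and 14.85 in XY controls. Every XX control lay above all other arrays, but neither their difference from XY controls (0.72, adjusted p = 0.0622) nor that of XY FOXL2+ from XX (-0.88, adjusted p = 0.0577) passed. Both passed with quantile normalization (0.0354 and 0.0456), array weights (0.00675 and 0.00256) and only the clusters above the median signal (0.0439 and 0.0408). Without any single XY FOXL2+ array the first passed too (0.0182 to 0.0462), and without XY FOXL2+ replicate 1 or 2 the second did (0.0337 and 0.00451). The neighbouring zinc finger gene Zim1 and the ubiquitin peptidase gene Usp29 were also lower on XY FOXL2+ replicates 3 and 4 than on replicates 1 and 2, with 13.75, 14.80, 12.70 and 13.01 for Zim1 and 8.06, 8.42, 7.22 and 7.06 for Usp29. Without XY FOXL2+ replicate 2, Zim1 passed in XY FOXL2+ minus XX (-1.40, adjusted p = 0.000908), in XX minus XY control (0.65, 0.0267) and in XY FOXL2+ minus XY control (-0.75, 0.0471), and Usp29 in XY FOXL2+ minus XX (-0.76, 0.0311). With only the 2 compared groups fitted, XX minus XY control passed for Peg3, Zim1 and Usp29 (limma adjusted p = 0.00023, 0.00044 and 0.00973).

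In the Snrpn domain, the MAGE family genes Ndn and Magel2 and the ubiquitin ligase gene Mkrn3 did not pass, and neither did the cluster that names Snrpn and Snurf (9.39 ± 0.09 in XY FOXL2+, 9.51 ± 0.15 in XX and 9.34 ± 0.17 in XY controls). Ndn averaged 12.79 ± 0.11 in XY FOXL2+, 12.82 ± 0.14 in XX and 12.69 ± 0.06 in XY controls. The intervals of its 3 differences stayed within -0.23 and 0.33. The hydrolase gene Mest averaged 13.49 ± 0.10 in XY FOXL2+, 13.25 ± 0.29 in XX and 13.56 ± 0.18 in XY controls, and it was lower in XX without XX control replicate 1 (-0.46, adjusted p = 0.0114). Nnat, Blcap, Impact, Nap1l5, Peg13 and Trappc9 gave no call, with differences of -0.30 to 0.25.

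Of 37 other genes reported as imprinted in the mouse, many of them only in placenta, 34 had a cluster of their own. In XY FOXL2+ gonads 3 were higher and 4 lower than in XY controls, against 2.46% and 4.67% of all clusters. In XX controls 5 were higher and 6 lower than in XY controls, against 7.17% and 10.2%, and XY FOXL2+ minus XX gave 4 positive and 2 negative calls, against 2.87% and 2.64%. Dhcr7, which makes cholesterol from 7-dehydrocholesterol, averaged 8.68 ± 0.06 in XY FOXL2+, 8.78 ± 0.05 in XX and 10.64 ± 0.23 in XY controls, a difference of -1.97 between XY FOXL2+ and XY controls (limma adjusted p = 2.91e-07). The paraoxonase gene Pon3, near Peg10, fell in XY FOXL2+ (-1.35, adjusted p = 8.44e-05) and in XX (-1.45, adjusted p = 2.06e-05) against XY control. The matrix proteoglycan gene Dcn averaged 15.16 ± 0.32 in XY FOXL2+, 13.15 ± 0.27 in XX and 14.58 ± 0.05 in XY controls, so that XY FOXL2+ lay 2.02 above XX (adjusted p = 3.96e-05) and XX minus XY was -1.43 (adjusted p = 4.19e-05). It was 0.58 above XY control (adjusted p = 0.0404), a call lost without any XY control array, XY FOXL2+ replicate 3 or 4 or XX control replicate 2 or 4 (adjusted p = 0.0518 to 0.1) or with only the compared groups fitted (0.0598). The chloride channel gene Ano1 read 10.99, 11.18, 8.99 and 8.74 in XY FOXL2+ gonads and averaged 11.82 ± 0.13 in XX and 8.60 ± 0.26 in XY controls (XX minus XY 3.22, adjusted p = 0.000288). XY FOXL2+ minus XX was -1.85 for Ano1 (adjusted p = 0.0342), lost without XY control replicate 3, XY FOXL2+ replicate 3 or 4 or any XX array (0.0506 to 0.0943) or with only the compared groups fitted (0.102).

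The other calls on that list in XY FOXL2+ against XY control were Cobl (0.86, adjusted p = 0.0134) and Htr2a (0.45, 0.045), both higher, and Zim2 (-1.49, 0.0307) and Sfmbt2 (-0.74, 0.0341), both lower. Htr2a was lost whenever any single array other than XY control replicate 1 or XY FOXL2+ replicate 2 or 3 was left out (up to 0.137), Zim2 without XY control replicate 3 or 4 or XY FOXL2+ replicate 1 or 2 (up to 0.0879), and Sfmbt2 without those or XX control replicate 2 or 4 (up to 0.0898). In XX against XY controls, Tfpi2 (0.42), Gab1 (0.39), Zfat (0.31) and Zim3 (0.29) were higher, and Zim2 (-2.32, 0.000769) and Pon2 (-0.60) were among the lower. Between XY FOXL2+ and XX, Htr2a (0.62), Phactr2 (0.49) and Klf14 (0.31) were higher and Gab1 (-0.39) lower. Single left-out arrays ended the calls of Zfat and Zim3 in XX against XY (up to 0.0705 and 0.107) and of Gab1 and Klf14 between XY FOXL2+ and XX (up to 0.0808 and 0.128), as did fitting only the compared groups for Gab1 and Klf14 (0.0859 and 0.0506) and quantile normalization for Klf14 (0.0897). Array weights ended the calls of Zim2 (0.0557) and Sfmbt2 (0.0662) in XY FOXL2+ against XY control, and quantile normalization that of Sfmbt2 (0.0542). Both group means lay under the background level of 6.94 in the calls of Htr2a (6.57 in XY FOXL2+, 5.95 in XX and 6.12 in XY controls), Klf14 (6.65 in XY FOXL2+ and 6.33 in XX), Tfpi2 (5.78 in XX and 5.35 in XY controls) and Zim3 (5.96 in XX and 5.67 in XY controls), so these signals cannot be told from background. With only the compared groups fitted, the list had 0 higher and 2 lower calls in XY FOXL2+ against XY control, and with single arrays left out 1 to 3 higher and 2 to 4 lower.

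Of 20 factors that set, keep or erase imprints, all were measured. Between XY FOXL2+ and XY control gonads 1 was higher and 1 lower, against 2.46% and 4.67% of all clusters. Hells, a chromatin remodeller needed for DNA methylation, was higher (0.74, adjusted p = 0.0209, lost without XY control replicate 1, 3 or 4, 0.054 to 0.0719) and the methylcytosine oxidase gene Tet2 was lower (-0.52, adjusted p = 0.0127). Both calls were lost with only the compared groups fitted. In XX against XY controls 2 were higher and 7 lower, against 7.17% and 10.2% of all clusters and 12% and 16.6% of those above the median signal. The 2 higher were Hells (1.18, adjusted p = 0.000389) and the histone methyltransferase gene Setdb1 (0.61, adjusted p = 0.00478). Among the lower were Tet1 (-0.74), Tet2 (-0.66), Eed (-0.48) and Dnmt3l (-0.63), the last with means of 4.73 in XX and 5.36 in XY controls that cannot be told from background. With quantile normalization 2 of the 7 lost their calls (adjusted p = 0.0823 and 0.0965). The largest difference of the 7 was that of Dppa3, which protects methylation in the early embryo and is made in germ cells of the gonad, with 9.06, 8.57, 10.44 and 10.73 in XY FOXL2+ gonads, 8.05 to 9.28 in XX controls and 10.78 to 11.02 in XY controls (XX minus XY -2.22, adjusted p = 0.00182). The lower count was 4 without XX control replicate 2 and 3 without XX control replicate 4, and the higher count was 4 with quantile normalization or array weights. Between XY FOXL2+ and XX, Tet3 alone passed (0.45, adjusted p = 0.026), and it was lost without XY FOXL2+ replicate 3 or 4 or XX control replicate 2, 3 or 4 (0.0674 to 0.0895) or with only the compared groups fitted (0.0931). The mean of 10 general germ cell genes was 9.61 to 10.57 on XY FOXL2+ arrays, 10.01 to 10.44 on XX arrays and 10.49 to 11.17 on XY control arrays. Relative to XY controls 3 of the 10 fell in XY FOXL2+, against 4.67% of all clusters. In XX 1 rose and 4 fell, against 7.17% and 10.2%. The part of these germ cell genes in these results was not tested.

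Marker lists of other cells that the dissected tissue can hold were read on the same arrays. The mean of 6 mesonephros genes was 6.79, 6.60, 6.16 and 6.27 in XY FOXL2+ replicates 1 to 4, 6.61 to 6.86 in XX controls and 5.86 to 6.11 in XY controls. Relative to XY controls 1 rose and 1 fell in XY FOXL2+, against 2.46% and 4.67% of all clusters. In XX 2 rose and 1 fell, against 7.17% and 10.2%. The mean of 6 erythroid genes was 10.20, 10.76, 9.03 and 8.64 in XY FOXL2+, 9.59 to 9.99 in XX and 9.36 to 9.90 in XY controls, with no call in any comparison. The mean of 9 endothelial genes was 9.50 to 9.74 in XY FOXL2+, 9.17 to 9.41 in XX and 9.29 to 9.55 in XY controls. Relative to XY controls 2 of the 9 rose and none fell in XY FOXL2+, against 2.46% and 4.67% of all clusters. In XX 1 rose and 3 fell, against 7.17% and 10.2%. The mean of 10 meiotic germ cell genes was 10.42 to 12.55 in XY FOXL2+, 12.23 to 12.53 in XX and 8.54 to 8.91 in XY controls. Relative to XY controls 9 of the 10 rose in XY FOXL2+ and all 10 in XX, against 2.46% and 7.17% of all clusters. The mean of 10 macrophage genes was 7.10 to 7.22 in XY FOXL2+, 6.75 to 6.97 in XX and 6.78 to 6.98 in XY controls. Relative to XY controls 4 of the 10 rose in XY FOXL2+, against 2.46% of all clusters. In XX 1 rose and 1 fell, against 7.17% and 10.2%. All 4 measured genes of an adrenal cortex list fell in XY FOXL2+ and in XX relative to XY controls, against 4.67% and 10.2% of all clusters. Their array means were 5.60 to 5.84 in XY FOXL2+, 5.58 to 5.69 in XX and 7.36 to 7.51 in XY controls. The fetal Leydig genes fell in the same groups, and which cells express the adrenal cortex genes here was not tested. The part of these lists in the results of the imprinted genes was not tested.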

How the data were processed

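The deposited table holds log2 signals per transcript cluster, as taken from the range of the values (2.54 to 19.49, array medians 6.15 to 6.30). The authors' normalization, background correction, summarization of probes and log base were steps not given in the sources used here. Per the labels, total RNA was extracted with a Picopure kit and labelled with the Affymetrix WT Plus kit. From the 72688 entries, 6732 control probe sets were left out and 65956 clusters were tested without a filter. The platform annotation, with 1140 symbols updated through RefSeq, gave 31269 clusters 1 symbol, 1481 several and 33206 none. Each of the 42 members had exactly 1 cluster.

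Groups came from the sample titles. Differences were tested with limma 3.58.1 in R 4.3.3 (lmFit, eBayes with trend) in 1 fit over 12 arrays with 9 residual degrees of freedom, two-sided, with Benjamini-Hochberg adjustment over all 65956 clusters and a threshold of 0.05. Every adjusted p is from that fit or the named alternative. On simulated data for XY FOXL2+ minus XY control over 65956 clusters it recovered 90 of 100 clusters changed by 1 on the log2 scale and 99 of 100 changed by 2, with 9 false calls. The simulated noise of a cluster had the same spread in all 3 groups. The real XY FOXL2+ arrays lay further apart on the first principal component than those of either control group. These figures therefore do not measure recovery or false calls in the real comparison. Members past the threshold in any comparison are named with values, on every array if they were at least 1.5-fold apart in a comparison they passed. Of the other lists, called genes were named, at most the 5 with the largest change in each direction. Alternatives were quantile normalization, only clusters above the median signal, array weights, only the compared groups, a replicate block, the mean of all clusters of a gene, and leaving out each array. Replicate numbers showed no sign of pairing the samples: correlations of deviations were -0.0906 to 0.179 for 12 pairs of the same number and -0.129 to 0.202 for 36 others. Such ranges cannot exclude shared litters or batches. Each array is a separate embryo, and their number limits the precision. Members and lists were chosen with earlier results of these data known. The 12 microRNA sequences and the promoter window are from RefSeq (GRCm38.p6).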

Additional observations from a re-analysis of the deposited data

Results flagged for a closer look

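In 8 of 144 groups of 4 arrays, counting 3 groups for each of 48 clusters, a single array lay so far from the other 3 that its gap, as a share of the group's range, exceeded Dixon's critical value. Chance gives about 1 in 20 groups. In XX controls, Peg3 read 15.62 in replicate 3 (others 15.80 to 15.81), Mest 13.69 in replicate 1 (13.09 to 13.12), Asb4 8.41 in replicate 3 (8.60 to 8.61) and Inpp5f 9.59 in replicate 4 (10.09 to 10.13). In XY FOXL2+ gonads, Dio3 read 5.50 in replicate 1 (4.93 to 4.97) and Slc22a18 7.13 in replicate 2 (6.83 to 6.86). In XY controls, Tspan32 read 6.78 in replicate 2 (6.49 to 6.51) and Trappc9 8.69 in replicate 1 (8.85 to 8.88).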

How the results depend on the processing

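Of 34 calls of members, 22 were kept under all 18 alternatives, 12 were lost under at least 1, and none reversed. The cause of the losses was not tested. The counts of members that fell in XY FOXL2+ (3), rose in XX (9) or fell in XX (11), all relative to XY controls, stayed within 1.5 times under every alternative. The 2 members higher in XY FOXL2+ than in XY controls became 1 with array weights and 1 with only the compared groups, and 1 to 4 with single arrays left out. The 4 members higher in XY FOXL2+ than in XX became 8 with array weights, 2 with only the compared groups, and 2 to 6 with single arrays left out. The 5 lower became 10, 2, and 4 to 11 in the same order. With the replicate number as a block no member lost a call, Peg3 gained calls in XX minus XY control (adjusted p = 0.0296) and XY FOXL2+ minus XX (0.0324), Tspan32 gained one in XY FOXL2+ minus XX (0.0499), and the cluster that names H19 and Mir675 passed in XY FOXL2+ minus XY control (adjusted p = 0.0343, against 0.0726 without the block). Under the block Mir758 (0.0688), Mir376c (0.0525) and Dcn (0.0516) lost their calls in XY FOXL2+ minus XY control, Zim3 (0.0589) in XX minus XY control and Klf14 (0.0527) in XY FOXL2+ minus XX. The Cd81 calls against XY control (quantile normalization) and the Peg12 call against XX are the member calls that another scaling ended. The mean over clusters of a gene could not change a member's own value, as each has 1 cluster. Signals near 6.94 or less cannot be told from background, which limits Kcnq1 and Phlda2 in XY gonads, most microRNA clusters, and the calls of Dnmt3l, Tfpi2, Zim3, Htr2a and Klf14. The lower group mean also lay under 6.94 in the calls of Slc22a18 (6.76 in XY controls), Peg12 (6.67 in XX), Cobl (6.79 in XY controls) and Zim2 (6.43 in XY FOXL2+ and 5.60 in XX).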
